A study of Homo sapiens with 11 samples.

Results

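The CACNA1 genes encode the alpha-1 subunits of voltage-gated calcium channels, and the binding of CTCF along them was read from CUT&RUN peak lists. All 10 genes of the family were taken, CACNA1A to CACNA1I and CACNA1S, out of 19974 protein-coding genes on chromosomes 1 to 22 and X. Each CTCF summit inside a gene or within 10 kb of it was assigned to that gene. The family was picked with results of these data known, and was chosen by the values and positions of a strong CACNA1C site in the ORC2 deletion and rescue lists, absent from WT. That site is described here without a test.

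The cells were HCT116 p53-/-, a human colorectal cancer line from which p53 had been removed, and every group shares this loss. WT means these cells with ORC2 intact. ORC2 deletion is a clonal line, ORC2B2, made from them with CRISPR/Cas9. ORC2 rescue cells were clonally selected after ORC2, with its 3′ and 5′ UTR, had been returned on a plasmid. ORC2 belongs to the origin recognition complex, which marks where DNA replication may start. Because the deletion and rescue cells are clones, a difference between clones and an effect of ORC2 cannot be told apart. CUT&RUN releases the DNA around an antibody-bound protein with a tethered nuclease. The antibody was against CTCF or, for the background, IgG, and the 11 libraries form 6 groups of 2, apart from 1 for rescue IgG.

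The authors deposited 1 list of CTCF summits per genotype, with 19044 entries for WT, 31112 for ORC2 deletion and 20810 for rescue. A summit is the single base where a peak is highest, and its value is the −log10 q that the peak caller gave, so a higher value means a peak that stands out more from the background. The values are not scaled between lists, the depth of the libraries is unknown, and no list gives values per replicate. Values and ranks are therefore read within a list only, and no comparison between genotypes has a replicate check. No IgG summit of any genotype lay within 10 kb of a CACNA1 gene. The IgG lists were short, with 17 summits for WT, 34 for ORC2 deletion and 33 for rescue, so this absence says little.

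Alpha-1 subunits form the pore and the voltage sensor of the channel, and each gene gives its channel a current type. L-type channels (CACNA1S, CACNA1C, CACNA1D, CACNA1F) serve muscle contraction, pacemaking, secretion and vision. P/Q-, N- and R-type channels (CACNA1A, CACNA1B, CACNA1E) trigger transmitter release at synapses, and T-type channels (CACNA1G, CACNA1H, CACNA1I) open near the resting potential and shape rhythmic firing. CTCF is a zinc finger protein that halts cohesin and so anchors chromatin loops. Several of these genes are very long, which gives room for many CTCF sites within 1 gene. Expression was not measured in these libraries.

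In total the family held 24 WT, 42 deletion and 27 rescue summits. The deletion count was 1.75 times the WT count, where the whole deletion list was 1.63 times as long as the WT list, and the rescue count was 1.12 times, where the whole list was 1.09 times as long. Of the 10 genes, 7 had a WT summit, 9 a deletion summit and 8 a rescue summit. Among all protein-coding genes these shares were 50.4%, 63.7% and 52.0%. The members span 28.3 to 727 kb and can hold more summits than a short gene. Among the 9175 protein-coding genes at least as long as the shortest member, 61.5% had a WT summit, 75.9% a deletion summit and 63.8% a rescue summit. Most members are far longer than that limit, so these shares are not matched for length.

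**Figure D1:**
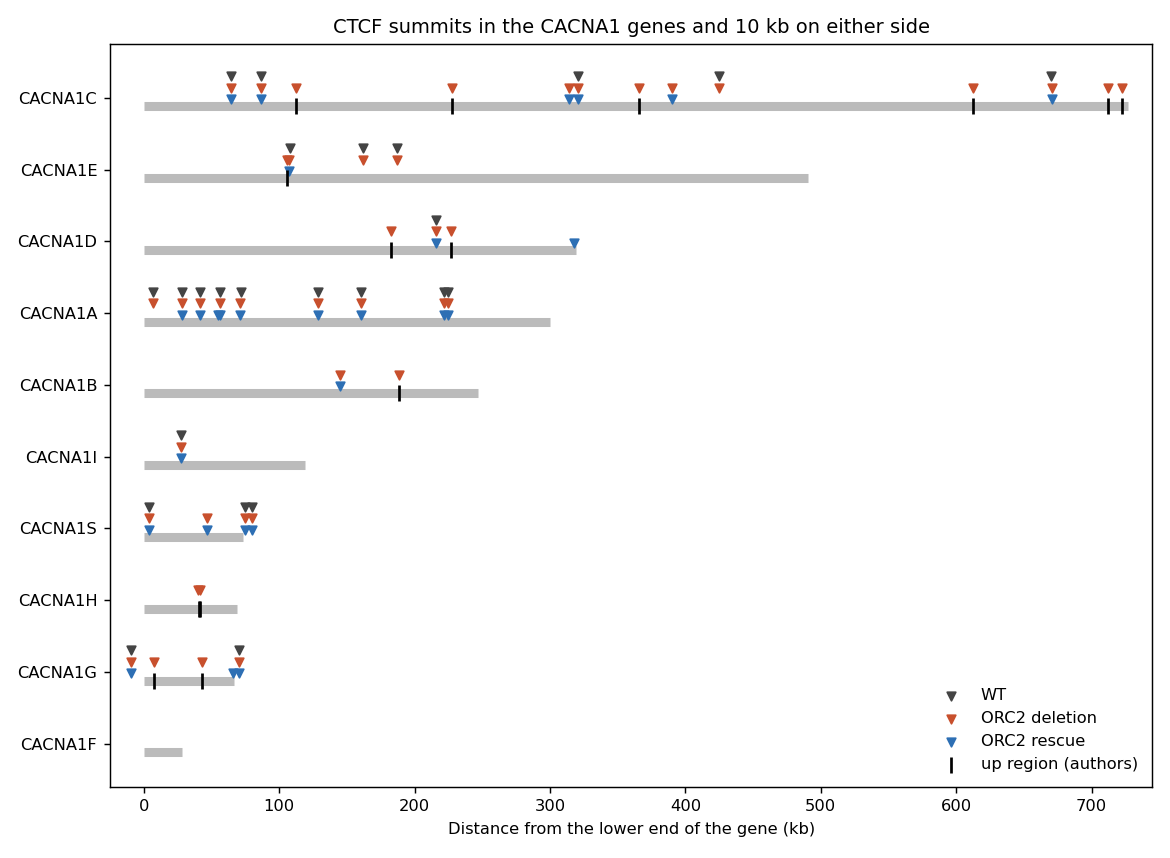
The horizontal axis is the distance in kb from the lower genomic end of each gene, grey bars are the genes to scale, triangles are CTCF summits by list, and black ticks are the authors' up regions. CACNA1C has 13 deletion summits against 5 WT and 6 rescue summits, CACNA1A has 9 in each list, and CACNA1F has none.

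Per 100 kb of gene and flank, the family held 0.909 WT, 1.59 deletion and 1.02 rescue summits. The same densities, pooled over protein-coding genes at least as long as the shortest member, were 0.788, 1.31 and 0.865. The order was the opposite for the median gene. The median CACNA1 gene had 0.628 WT, 1.31 deletion and 0.655 rescue summits per 100 kb. For the genes at least as long as the shortest member the medians were 0.739, 1.40 and 0.845. By current type, L-type genes had 0.733 WT, 1.63 deletion and 0.978 rescue summits per 100 kb. P/Q-, N- and R-type genes had 1.09, 1.37 and 1.00, and T-type genes 0.954, 2.23 and 1.27. The T-type values rest on 3 WT, 7 deletion and 4 rescue summits in 0.314 Mb.

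**Figure D2:**
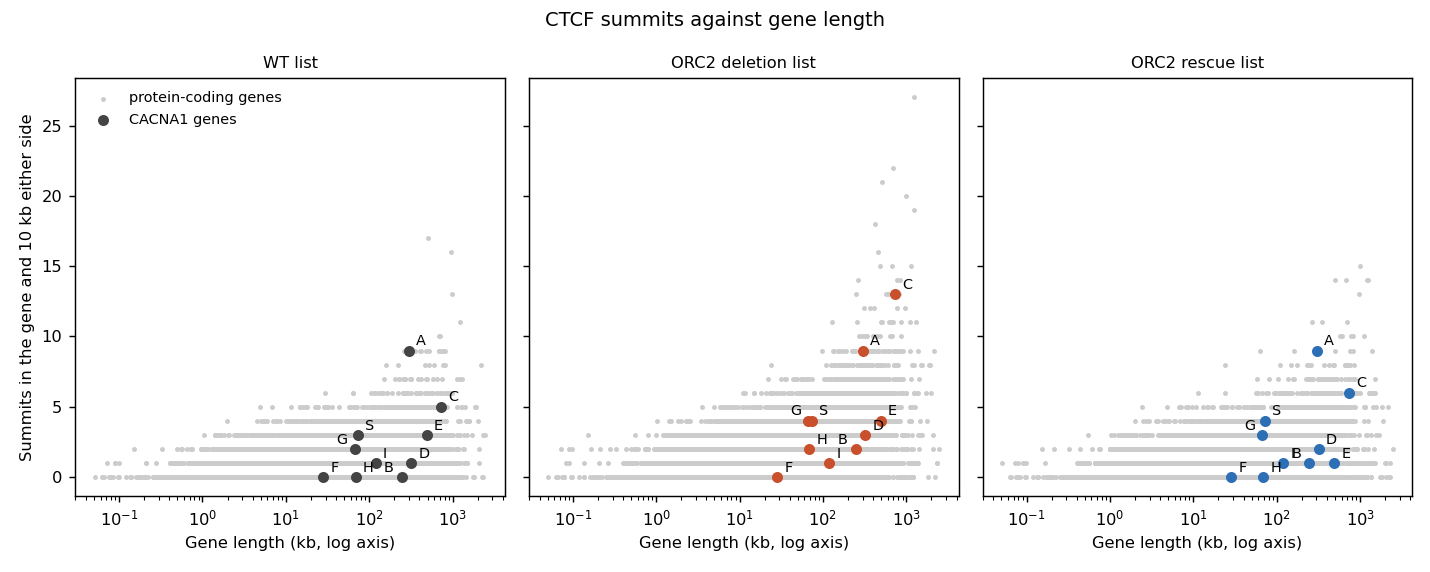
Each panel plots summits in a gene and its flanks against gene length in kb on a log axis, with grey points for protein-coding genes and coloured points for the CACNA1 genes, marked by their last letter. CACNA1A stands at 9 summits in every panel, while CACNA1C goes from 5 in WT to 13 in deletion and 6 in rescue.

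Summits of the 3 lists within 500 bp of each other were joined into sites, which gave 46 CACNA1 sites among 34769 in the genome. Sites with a summit of all 3 lists numbered 19, or 41.3% (95% Wilson interval 28.3 to 55.7, which covers counting error only), against 40.6% of all sites. Sites of the deletion list alone numbered 14, or 30.4% (19.1 to 44.8), against 27.3% of all sites. Those of deletion and rescue without WT numbered 5, or 10.9% (4.73 to 23.0), against 13.0%. The strong CACNA1C site, which the choice of the family fixed, is 1 of these 5. Another 4 were in WT and deletion (8.43% of all sites), 3 in rescue alone (5.00%), 1 in WT alone (4.49%) and 0 in WT and rescue without deletion (1.18%). Every genome-wide share lay inside the family's interval, so a difference in the mix of sites was not detectable with 46 sites, and the intervals are wide.

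**Figure D3:**
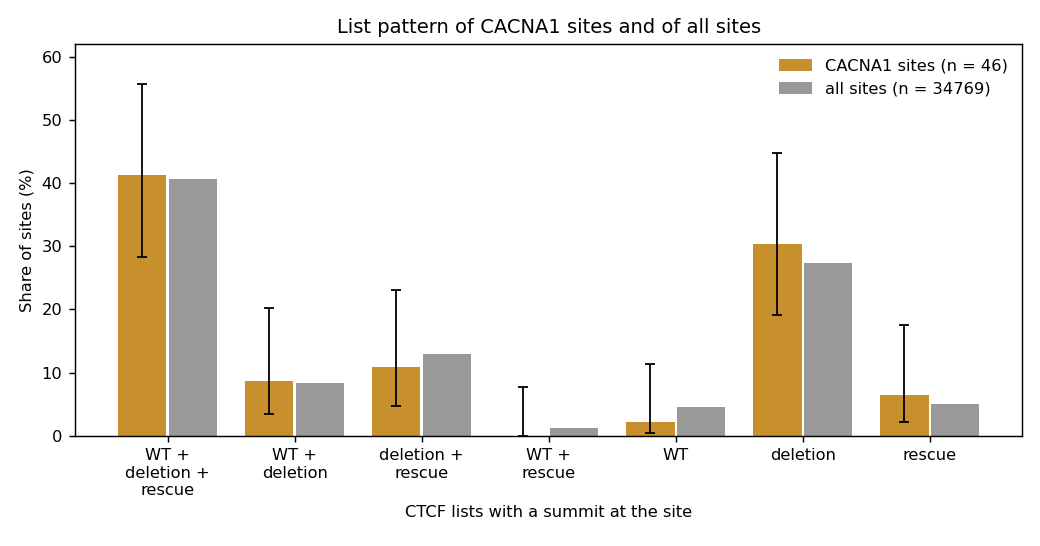
Bars give the share of sites in percent by the lists that hold a summit there, for the 46 CACNA1 sites with 95% Wilson intervals and for all 34769 sites. The grey bars lie within the intervals in all 7 patterns.

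Read by summits, 20 of 42 deletion summits, 47.6% (33.4 to 62.3), had no WT summit within 500 bp, against 45.2% of the deletion list. Of these 20, 6 had a rescue summit, 30.0% (14.5 to 51.9), against 32.3% over the list. The strong CACNA1C site, which the choice of the family fixed, is among the 20 and among the 6. In the other direction, 22 of 24 WT summits had a deletion summit, 91.7% (74.2 to 97.7), against 89.5%, and 19 of 24 had a rescue summit, 79.2% (59.5 to 90.8), against 76.2%. Of 27 rescue summits, 24 had a deletion summit, 88.9% (71.9 to 96.1), against 89.6%, and 19 a WT summit, 70.4% (51.5 to 84.1), against 69.8%. The authors' up list covered 14 of the 42 deletion summits, 33.3% (21.0 to 48.4), against 30.9%. Their down list covered 0 of 24 WT summits, against 1.92%. With all lists cut to the length of the WT list, 26 deletion summits remained in the family and the sites of deletion alone went from 14 to 3. Over the whole deletion list, the share of summits without a WT or rescue summit went from 30.6% to 12.6%.

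The highest value of the family in each list lay at a site of all 3 lists, in CACNA1A. In the deletion list 9 of 42 CACNA1 summits were in the upper 10% of the list by value, 21.4% (11.7 to 35.9), where 10.0% is the background. In WT 4 of 24 were, 16.7% (6.68 to 35.9), against 10.0%, and in rescue 7 of 27, 25.9% (13.2 to 44.7), against 10.0%. The choice of the family fixed 1 of the 9 and 1 of the 7, the strong CACNA1C site. Without it 8 of 41 deletion summits, 19.5% (10.2 to 34.0), and 6 of 26 rescue summits, 23.1% (11.0 to 42.1), were in the upper 10%. The family as a whole was picked with results known, so leaving out that site does not make these shares a test. The 3 lists also share several of these sites, so their shares are not separate evidence. The family's medians were 8.63 in deletion, 8.08 in rescue and 5.81 in WT, and those of the whole lists 8.06, 6.58 and 6.18. The upper summits of deletion were in or beside CACNA1A, CACNA1C, CACNA1E, CACNA1G, CACNA1I and CACNA1S. Those of rescue were in or beside the same genes except CACNA1I. In WT all 4 were in or beside CACNA1A and CACNA1S.

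**Figure D4:**
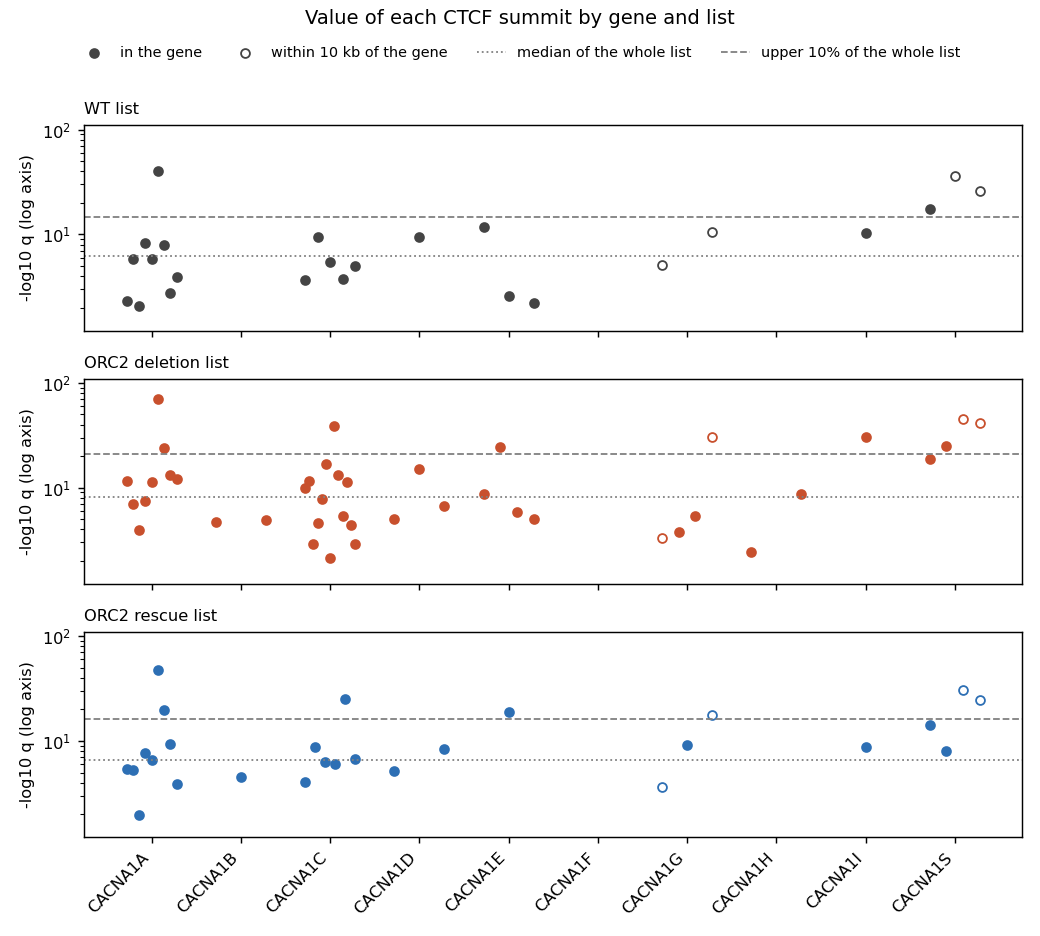
Each point is a CTCF summit with its −log10 q on a log axis, by gene and list, filled inside the gene and open in the 10 kb beside it. Dotted and dashed lines mark the median and the upper 10% of the whole list. The summit of CACNA1A at 69.8 in deletion, 40.4 in WT and 47.9 in rescue is the highest in each panel.

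CACNA1C, the L-type pore subunit of heart and smooth muscle, spans 1970780 to 2697950 on chromosome 12 (hg38) and is the longest member. It had 14 sites, of which 3 were in all lists, 3 in deletion and rescue, 6 in deletion alone, 1 in WT and deletion and 1 in WT alone. Its 13 deletion summits exceed its 5 WT summits by 8, where the whole deletion list was 1.63 times as long as the WT list. Of 19974 protein-coding genes, 9 had a larger excess, others had an equal one, and the median excess was 0. That order takes genes of every length, and a long gene such as CACNA1C (727 kb) has room for more summits. No order among genes of like length was made. The gene was chosen for a site of this kind, so its place in that order is a description.

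The strong site stood at 2360889 in the deletion list, with a value of 38.9 at rank 621 of 31112. The rescue list had it at 2360896, 7 bp away, with a value of 25.0 at rank 729 of 20810. The WT list had no summit there. Its nearest entries were at 2395547, 34658 bp above, with a value of 3.71, and at 2291521, 69368 bp below, with 5.49. The highest WT value anywhere in the gene was 9.36. The site that leads CACNA1C in both other lists has no counterpart among the WT entries, not even a weak one, and the choice of the family fixed this. By deletion value it stood at place 3 of the 4545 deletion summits that had a rescue and no WT summit. It lies inside the gene, 308 kb downstream of the start in the RefSeq promoter table and 53.6% along the gene from its lower end. No other gene of the table holds the position. Whether it is exonic or intronic is not given by the gene table. No IgG list had a summit on chromosome 12, which says little because those lists are short.

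The other sites of deletion and rescue in CACNA1C were weaker. One stood at 2285031 in deletion (value 7.80) and 2285056 in rescue (6.35), within the noncoding transcript CACNA1C-IT3. The next stood at 2641271 in deletion (11.2) and 2641246 in rescue (6.79). A WT summit at 2640638 (4.99) lay 633 bp from that deletion summit. With sites joined within 1 kb it became a site of all 3 lists, and the family had 4 rather than 5 sites of deletion and rescue.

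CTCF sites shared by all lists in CACNA1C were at 2035132 in the WT list (3.67), 2035224 in the deletion list (9.95) and 2035033 in the rescue list (4.10). A second such site lay at 2057302 in the WT list (9.36), 2057426 in the deletion list (11.7) and 2057284 in the rescue list (8.75). It was the site closest to the gene's start at 2052987, between 4297 and 4439 bp downstream. The third was at 2291521 in the WT list (5.49), 2291502 in the deletion list (16.9) and 2291339 in the rescue list (6.02). WT and deletion without rescue shared a site at 2395547 (3.71) and 2395496 (13.3).

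All 6 sites of deletion alone in CACNA1C were in the authors' up list and were weak within the deletion list. They stood at 2083172 (2.91), 2198498 (4.64), 2336445 (2.12), 2583279 (5.41), 2683103 (4.37) and 2693389 (2.91), against a list median of 8.06. The summit at 2683103 also lies in the antisense transcript CACNA1C-AS1. Between 2395547 and 2583279 the gene had 188 kb without a summit of any list, its widest such stretch.

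**Figure D5:**
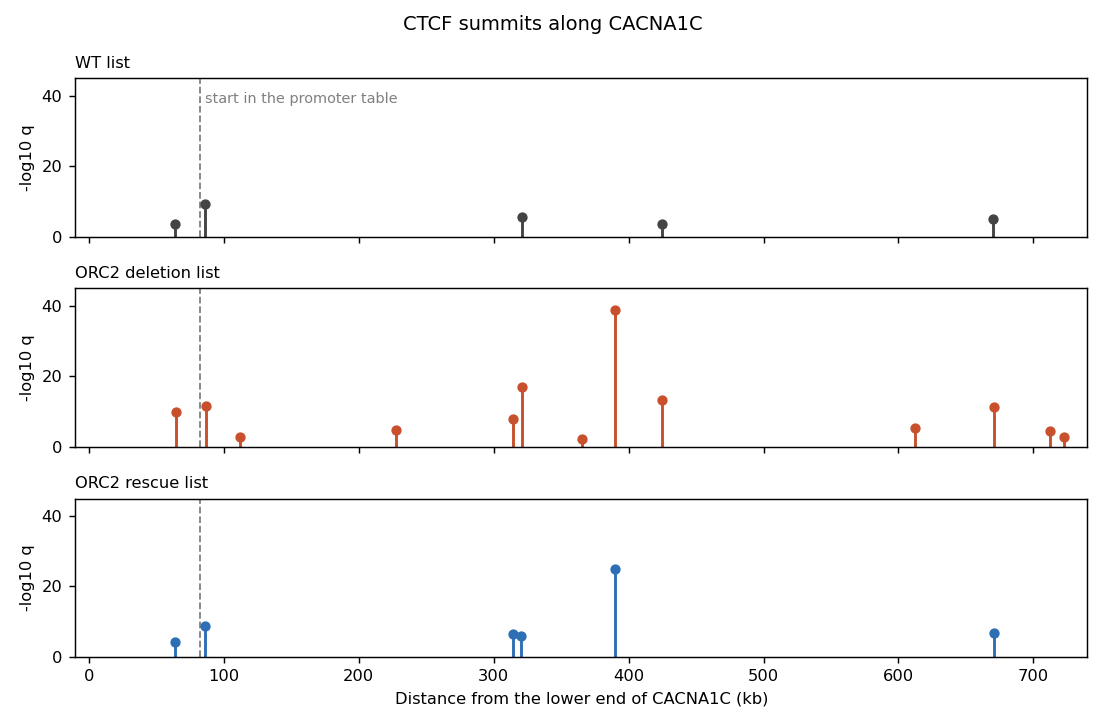
Vertical lines give the −log10 q of each CTCF summit against the distance in kb from the lower end of CACNA1C, by list, and the dashed line marks the start used in the promoter table. The tallest deletion line, 38.9, and the tallest rescue line, 25.0, stand at the same place 390 kb along the gene, where the WT panel is empty.

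CACNA1S, the voltage sensor of skeletal muscle contraction, spans 201039512 to 201112426 on chromosome 1 and had 4 sites. One of them, at 201086147 in deletion (24.8, rank 2089) and 201086196 in rescue (8.08, rank 7930), had its closest WT summit 28179 bp away. It was the only site of deletion and rescue without WT, beside the strong one of CACNA1C, whose deletion value was in the upper 10% of its list; the rescue value was not. The other 3 sites of CACNA1S were in all lists. Inside the gene, WT had 201043168 (17.6), deletion 201043193 (18.7) and rescue 201043234 (14.2).

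Upstream of CACNA1S, WT had a summit at 201114375 (35.7), deletion at 201114519 (44.9) and rescue at 201114440 (30.7). They lay between 1949 and 2093 bp before the start of CACNA1S, the shortest such distance among the 8 members with a start in the promoter table. A further site stood at 201119578 in the WT list (25.7), 201119554 in the deletion list (41.8) and 201119571 in the rescue list (24.8). Both flanking sites lie within ASCL5, a neighbouring gene of the achaete-scute family of transcription factors, and cannot be assigned to either gene from these lists.

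CACNA1D, the L-type subunit of the sinoatrial node and of inner hair cells, spans 53494611 to 53813733 on chromosome 3. Its 1 site of all lists was at 53710433 in the WT list (9.51), 53710289 in the deletion list (15.0) and 53710497 in the rescue list (5.21). Deletion alone had summits at 53677540 (4.98) and 53721762 (6.61), both in up regions. Rescue alone had 1 at 53812676 (8.34), where the gene CHDH, encoding choline dehydrogenase, overlaps. The 183 kb from the gene's start to its first summit were empty in every list.

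CACNA1F, the L-type subunit of photoreceptor synapses, spans 49205063 to 49233340 on chromosome X and had no summit in any list. At 28.3 kb it is the shortest member. The closest summit outside its window, in the rescue list, lay 12227 bp from the gene.

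CACNA1A, the P/Q-type subunit of many central synapses, spans 13206442 to 13506479 on chromosome 19. It had 9 summits in each list, and 8 of its 10 sites were in all 3. No up region touched it, and no protein-coding neighbour lay within 10 kb. Its strongest site was at 13335103 in the WT list (40.4, rank 161), 13335092 in the deletion list (69.8, rank 141) and 13335093 in the rescue list (47.9, rank 163). The 3 summits lay within 11 bp of each other and were the highest of the family in their lists.

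The next strongest site of CACNA1A was at 13366579 in deletion (23.8) and 13366568 in rescue (19.9), both in the upper 10% of their lists. The WT summit of that site, at 13366882 (7.91), lay 303 bp from the deletion summit and was not in the upper 10% of its list. Weaker sites of all lists followed along the gene. At 13428507 in the WT list (2.74), 13428453 in the deletion list (13.1) and 13428491 in the rescue list (9.28) the summits spanned 54 bp. A close neighbour had 13431183 in the WT list (3.90), 13431222 in the deletion list (12.2) and 13431141 in the rescue list (3.86).

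At the lower end of CACNA1A, a site had 13234821 in the WT list (5.83), 13234665 in the deletion list (7.03) and 13234863 in the rescue list (5.40). Another had 13248016 in the WT list (2.06), 13248079 in the deletion list (3.98) and 13248064 in the rescue list (5.34). These 2 sites lay below the median of every list. The site at 13262422 in the WT list (8.24), 13262438 in the deletion list (7.51) and 13262475 in the rescue list (7.69) spanned 53 bp. The loosest site had 13277946 in the WT list (5.79), 13277397 in the deletion list (11.3) and 13277522 in the rescue list (6.52). There the WT and deletion summits were 549 bp apart and were joined through the rescue summit, so this deletion summit counts among the 20 without a WT summit. A rescue summit at 13261372 (1.98) was in no other list, and WT and deletion shared 13212986 (2.30) and 13212982 (11.5).

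CACNA1B, the N-type subunit of presynaptic terminals, spans 137877782 to 138124619 on chromosome 9 and had no WT summit. Deletion and rescue shared a site at 138022773 (4.72) and 138022669 (4.51), with the closest WT summit 127147 bp away. Deletion alone had 138066043 (4.91), in an up region of 250 bp. All of these values lay below the medians of their lists.

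CACNA1E, the R-type subunit, spans 181317699 to 181808084 on chromosome 1 and had 3 WT, 4 deletion and 1 rescue summits. Its site of all lists was at 181425319 in the WT list (11.8), 181425182 in the deletion list (24.3) and 181425227 in the rescue list (18.8). It lies before the start in the promoter table, at 181483517, but inside the longer gene record, and within the noncoding LOC107985232. The other WT summits, at 181479242 (2.56) and 181504568 (2.19), had a deletion summit at 181479369 (5.83) and 181504476 (5.06). The closest rescue summit to either was 54015 bp away. An up region held the deletion summit at 181423651 (8.61), 1668 bp from the nearest WT summit. The last 304 kb of the gene had no summit in any list.

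CACNA1G, a T-type subunit of the thalamus and the sinoatrial node, spans 50560715 to 50627474 on chromosome 17. Its sites of all lists were in the flanks. The stronger had 50630795 in the WT list (10.6), 50630784 in the deletion list (30.5) and 50630789 in the rescue list (17.5), a span of 11 bp, within the noncoding LOC101927253. The weaker had 50550942 in the WT list (5.08), 50551130 in the deletion list (3.32) and 50550923 in the rescue list (3.63), inside SPATA20. Inside CACNA1G no WT summit was listed. Deletion alone had 50568068 (3.78) and 50603571 (5.35), both in up regions, and rescue alone had 50626451 (9.18).

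CACNA1H, the T-type subunit of sensory neurons and the adrenal zona glomerulosa, spans 1153106 to 1221768 on chromosome 16. It had 2 summits, both of deletion alone and both in up regions, at 1193413 (2.41) and 1194865 (8.64). The closest WT summit was 87118 bp from the first of them. The second had the highest value among the family's 14 sites of deletion alone. Both positions also lie in the pseudogene LOC102723999.

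CACNA1I, a T-type subunit of the brain, spans 39570753 to 39689735 on chromosome 22 and had 1 site. WT had it at 39598216 (10.4), deletion at 39598219 (30.6) and rescue at 39598180 (8.78). The deletion value was in the upper 10% of its list, and those of WT and rescue were not. The site lay between 27427 and 27466 bp downstream of the gene's start.

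The 14 sites of deletion alone had mostly low values. Their median in the deletion list was 4.78, with a range of 2.12 to 8.64, and the median over all such sites was 4.36. The site of CACNA1E (8.61) and the stronger site of CACNA1H (8.64) lay above the median of the whole deletion list, 8.06. For the family's 19 sites of all lists the median deletion value was 15.0 (3.32 to 69.8), and over all such sites it was 13.2. Only 3 of the 14, in CACNA1D, CACNA1E and CACNA1H, ranked within the first 19044 places of the deletion list, which is the length of the WT list. All 14 were in the up list. No WT or rescue summit lay inside any of the 9603 up regions, although 126 of the deletion summits in them (1.31%) had one within 500 bp, so the sites of deletion alone and the up regions are largely the same positions and no separate evidence of each other. Their up regions were 202 to 480 bp wide, with a median of 290 bp against 300 bp for all up regions. Counted by genes, 6 of the 10 members held an up summit, against 41.1% of protein-coding genes at least as long as the shortest member and 30.5% of all. Sites of deletion and rescue without WT lay in 3 of the 10 members, CACNA1B, CACNA1C and CACNA1S. The share was 23.5% of protein-coding genes at least as long as the shortest member and 16.8% of all. The choice of the family fixed 1 of these 3. Most members are far longer than the shortest, so none of these shares of genes is matched for length. No down region lay in any CACNA1 gene or within 10 kb.

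Over the 19 sites of all lists the distance between the outermost of the 3 summits ranged from 11 to 549 bp, with a median of 137 bp, against 101 bp for 14043 sites in the genome with 1 summit of each list. With summits matched within 100 bp, 12 CACNA1 sites of all lists remained.

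The 10 kb limit passed close to some summits. The outermost summit kept was at 50550923 in rescue (3.63), 9792 bp outside CACNA1G. The nearest ones left out were in the deletion list, at 39559910 (5.67), 10843 bp from CACNA1I, at 50639158 (19.0), 11684 bp from CACNA1G, and at 13194730 (9.26), 11712 bp from CACNA1A.

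The next values concern the gene starts, where CTCF can lie close to a promoter. RefSeq promoter windows (GRCh38.p14, 250 bases before to 50 after the start) were matched for 8 of the 10 genes, all except CACNA1G and CACNA1H. No summit of any list lay in these 8 windows. Starts of CACNA1S, CACNA1C and CACNA1E had a WT and a deletion summit within 10 kb, the others in no list. For CACNA1A the closest WT summit lay 75296 bp away, for CACNA1B 182162 bp and for CACNA1D 119519 bp.

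The core of the CTCF motif was searched in all promoter windows on both strands, in its common form AGGGGGC and in the variants with a T in the middle, AGGTGGC being the first and AGATGGC the second. A window that holds several of the 3 counts once, and matches of different forms may share bases. At least 1 was found in 24.4% of 35116 windows, in 47.2% of the 324 windows with a summit of each list inside, and in 23.4% of the 32887 with no summit inside. The 8 CACNA1 windows, which hold no summit, had a match in 3, or 37.5%, and are too few for a comparison. Taken singly, the 3 forms were in 14.4%, 6.76% and 5.41% of all windows. The matches in CACNA1C, CACNA1S and CACNA1F are shown because they stand at starts with a summit of each list nearby (CACNA1C and CACNA1S) and at a start with none (CACNA1F). Capitals mark the match, and each sequence is given 5′ to 3′ on the gene's own strand, plus for CACNA1C and minus for the others, in GRCh38.p14.
CACNA1C, chr12:2052766-2052794: cgggcgccgggAGGGGGCccgacttcggg
CACNA1S, chr1:201112461-201112489: ctcctgcccccGCCCCCTggctggctcag
CACNA1F, chrX:49233319-49233347: gggttgtgtgcAGATGGCccttcaatctc
The closest summit to the match was 4504 bp away in CACNA1C, 1900 bp in CACNA1S and 40497 bp in CACNA1F. None of the matches lies at a summit, and a match of 7 letters is a description of the sequence, not of a bound site. The CACNA1S match reads on the opposite strand of the gene. The remaining 5 windows had none of these letters. Counting other genes, 29 promoter windows lay within the members and their flanks, and none had a summit inside. The sequences at the summits themselves, that of CACNA1C at 2360889 included, were not used here.

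The genes named as auxiliary subunits of calcium channels were read the same way. The 16 genes of the alpha-2-delta, beta and gamma families held 19 WT, 31 deletion and 24 rescue summits. Of their deletion summits, 14 (45.2%) had no WT summit, against 45.2% of the whole list. Of these 14, 7 had a rescue summit, against 32.3% of such summits over the list. In up regions were 7 of the 31, 22.6%, against 30.9%. CACNB2, the main beta subunit of the heart, had the highest deletion value without WT, 13.1 at 18215227 on chromosome 10, and rescue shared it. CACNA2D1 followed with 8.42, CACNG3 with 8.15, CACNA2D3 with 7.45 and CACNB4 with 7.30. Of these, only the site of CACNG3 was shared with rescue. No auxiliary gene had such a site in the upper 10% of the deletion list.

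Voltage-gated sodium channel alpha subunits and NALCN, the sodium leak channel, share the fold of the CACNA1 proteins. Those 10 genes held 16 WT, 27 deletion and 22 rescue summits, and 13 deletion summits (48.1%) had no WT summit, against 45.2% of the whole list. In up regions were 9 of the 27, 33.3%, against 30.9%. Among the deletion summits without WT, rescue shared the sites of SCN11A (9.46), SCN1A (7.52) and SCN10A (6.72), the last of them also in an up region. SCN4A (5.67) was in an up region without a rescue summit. Genes that handle calcium inside the cell (release channels, store sensors, pumps, calmodulin and its kinases), 24 of 25 of them matched, held 34 WT, 61 deletion and 43 rescue summits.

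Of the deletion summits in calcium handling genes, 30 (49.2%) had no WT summit and 20 (32.8%) were in up regions, against 45.2% and 30.9% of the whole list. STIM1, which senses the calcium store and opens ORAI channels, led with 19.3 at rank 3892, in an up region. CAMK2A, a calmodulin-dependent kinase of synapses, had 13.8, shared with rescue. RYR2, the calcium release channel of the heart, had 9.47, in an up region without a rescue summit. The receptors ITPR3 (9.35) and ITPR2 (9.26) followed, both shared with rescue. No gene of the 3 lists had a deletion value without WT as high as those of CACNA1C and CACNA1S, but the CACNA1 family had been chosen for the first of these.

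By summit counts alone, the protein-coding genes most like CACNA1C (5 WT, 13 deletion, 6 rescue) were IQCJ-SCHIP1 and ECE1. The measure was the sum of absolute differences of the counts over the 3 lists, with ties ordered by gene length. IQCJ-SCHIP1, at 828 kb, had 5, 14 and 7, a sum of 2, and ECE1, an endothelin-converting enzyme of 128 kb, had 5, 11 and 6, also 2. RPTOR, a subunit of the mTOR complex (5, 10 and 6), TTLL5 (5, 10 and 6) and NR6A1 (5, 11 and 7) each had a sum of 3. The likeness is of counts and not of positions or values, and it rests on 3 lists.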

How the data were processed

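CTCF and IgG CUT&RUN was carried out in HCT116 p53-/- WT, ORC2 deletion and ORC2 rescue cells. Per the submitters' processing notes, FastQC 0.11.5, Bowtie2 2.2.9, SAMtools 1.12 and MACS2 were used with build hg38. For peak calling settings, duplicates and use of IgG, nothing is stated in the labels. In the deposited summit files the value of each summit is a −log10 q. Each CTCF list names a genotype and no replicate and was taken as a pool. The up and down regions deposited by the authors carry no measured value.

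Summits were assigned to RefSeq genes of GRCh38.p14 widened by 10 kb, and joined within 500 bp into sites. A distance of 500 bp was used because at 100 bp 60.6% of WT summits had a deletion summit and at 500 bp 89.5%. Shares have 95% Wilson intervals. No test was run, since each genotype has 1 list. The members and gene lists were chosen with earlier results of these data known.

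All 10 genes were named. Of their sites, those named with values were the sites in the upper 10% of the deletion or rescue list, in all 3 lists, in WT alone and the highest deletion site of each gene; the remaining ones were added after their values were seen. Up to 5 genes per list were named by their highest deletion value without WT; 1 gene that this rule would name is not reported here. Alternatives were matching within 50 bp, 100 bp and 1 kb, no flank or 50 kb, −log10 q of at least 5 or 10, and equal list lengths. Matching was tried on simulated sites set much farther apart than the matching distance, with summits shifted by no more than 100 bp. All were recovered, which such a setting ensures, so closer or looser sites of the real lists were not tested. The tools were matplotlib 3.10.9, SciPy 1.17.1, pandas 2.3.3, NumPy 2.4.6 and Python 3.11.15.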

Additional observations from a re-analysis of the deposited data

How the results depend on the processing

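Of 79 values under alternative settings, 54 stayed within their interval or 1.5 times the main count, 25 moved and 0 reversed. The 54 include 6 of the strong CACNA1C site, which these settings could not move, since its nearest WT summit was 34658 bp away. A count that stayed need not hold the same sites. With −log10 q of at least 10, 10 sites were of deletion alone against 14, which counts as stayed. None of those 14 was among the 10, since their highest deletion value was 8.64. With −log10 q of at least 5, 15 WT summits of the CACNA1 genes remained and 16.7% of deletion summits were in up regions (16.6% over the list). A minimum of 10 left 19 deletion, 8 rescue and 7 WT summits, with 6 sites of all lists and 2 of deletion and rescue. There, 63.2% of deletion summits had no WT summit, 100% of WT summits had a deletion summit and 0% of deletion summits were in up regions. Over the whole lists these shares were 66.8%, 91.7% and 4.35%. Within 100 bp and 50 bp, sites of all lists numbered 12 and 9, WT summits with a deletion summit made up 58.3% and 37.5%, and deletion summits without WT 66.7% and 78.6%. Over the whole lists, the former shares were 60.6% and 39.3% and the latter 62.9% and 76.0%. Within 50 bp, 25 sites were in deletion alone, and within 1 kb 100% of WT summits had a deletion summit (90.3% over the list). With a 50 kb flank, WT had 39 and rescue 41 summits, with 30 sites of all lists. With equal list lengths, 26 deletion summits and 3 sites of deletion alone remained (12.6% of the whole list then had neither a WT nor a rescue summit), 30.8% of deletion summits had no WT summit (25.3% over the list), and 62.5% of these, 5 of 8, had a rescue summit (50.3% over the list). A stricter minimum or shorter list holds fewer summits by construction. No paired analysis was possible because the summit lists hold 1 pooled set of values for every genotype. For this reason no replicate could be left out either. The unknown depth limits every absence from a list.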
